A study of Mus musculus with 3 samples.

Results

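The 9 genes described here code for receptors and receptor-like proteins that bind oxidised lipids, lipoproteins and glycans on or in macrophages. They were taken by symbol from the 33696 genes of the deposited tables: Marco, Msr1 and Colec12 of the class A scavenger receptors, Cd36, Scarb1 and Scarb2 of class B, Cd68, and the C-type lectin-like receptors Olr1 and Mrc1. All 9 passed the filter on low counts in every comparison. Immune cells were recovered by bronchoalveolar lavage, a wash of the lung airspaces, and profiled by droplet single-cell RNA sequencing in which each captured transcript carries a unique molecular identifier (UMI). The C57BL/6J mice, a wild-type inbred strain, were 12 weeks old and breathed 1 ppm ozone, 1.5 ppm ozone or filtered air for 3 hours, with collection 22 to 24 hours after the exposure ended. The right lung lobes were lavaged, and the recovered cells were combined from 3 to 4 animals into 1 library, so each group is a single library and mice within it cannot be separated. There are therefore no replicates and no tests: every interval below is a 95% interval for counting error only, and does not cover differences between mice, exposure chambers or library preparations.

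Scavenger receptors take up oxidised lipoproteins, dying cells, bacteria and inhaled particles. Alveolar macrophages use them to clear surfactant and debris from the airspace, and ozone, which reacts with unsaturated surfactant lipids, gives rise to oxidised phospholipids and sterols that several of these receptors bind. Class A receptors are trimers with a collagen-like stem, class B receptors cross the membrane at both ends and also carry fatty acids or cholesterol, and the lectin-like members bind through a C-type lectin fold. In mice, loss of Marco or Msr1 has been linked to stronger lung inflammation after inhaled oxidants.

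The filtered air, 1 ppm and 1.5 ppm libraries held 59359742, 42825676 and 95403078 UMIs. After removal of barcodes under 500 UMIs, under 300 genes or over 10% mitochondrial UMIs, 3479, 2241 and 6577 cells remained. The mitochondrial limit removed 34.2%, 30.6% and 9.07% of barcodes, so the libraries differed in this quality measure. Libraries shared between 1 and 7 cell barcodes among the kept cells. Clustering, done without the 9 genes, gave 21 clusters, of which 12 matched alveolar macrophage markers such as Chil3, Ear1 and Siglecf. This alveolar-macrophage-like class held 3318, 2138 and 5682 cells at median depths of 13873, 16000.5 and 13072.5 UMIs. The 14 alveolar macrophage markers, which also named the class, were all found in it in each library. Their summed levels were 16499, 18428 and 13060 UMIs per 1000000. In cluster 12, part of the class, 7 of the 14 reached the level that the naming rule asked for. Of the marker lists of other cells, 8 conventional dendritic cell 1 markers summed highest, to 713 to 806, followed by 12 airway epithelial markers at 85.2 to 148. The 12 neutrophil markers summed to 80.6 to 89.9 and 10 T cell markers to 0.587 to 2.01. Its largest clusters differed between libraries: cluster 0, led by Dnah11 and Rbfox1, was the largest in the air and 1 ppm libraries with 1550 and 715 cells, while cluster 2, led by predicted genes, and cluster 1, led by Il1b, were the largest at 1.5 ppm with 1368 and 1116 cells.

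Cd36 stood apart in the 1.5 ppm library, where its macrophage level was 0.499 of that in air, and Colec12 stood apart at 1 ppm. Cd68 was higher in both ozone libraries, Msr1 was highest at 1.5 ppm, and the summed level of Marco differed little between libraries. Within clusters the Marco ratio of 1.5 ppm over air had a median of 0.654. Over the whole class, Scarb2 and Mrc1 were lower with each step in dose. In cells with over 4% mitochondrial UMIs, both were higher at 1.5 ppm than at 1 ppm, by 1.04 and 1.10 times. All levels below are UMIs per 1000000 UMIs of the summed alveolar-macrophage-like cells (CPM), given in the order filtered air, 1 ppm and 1.5 ppm.

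**Figure D1:**
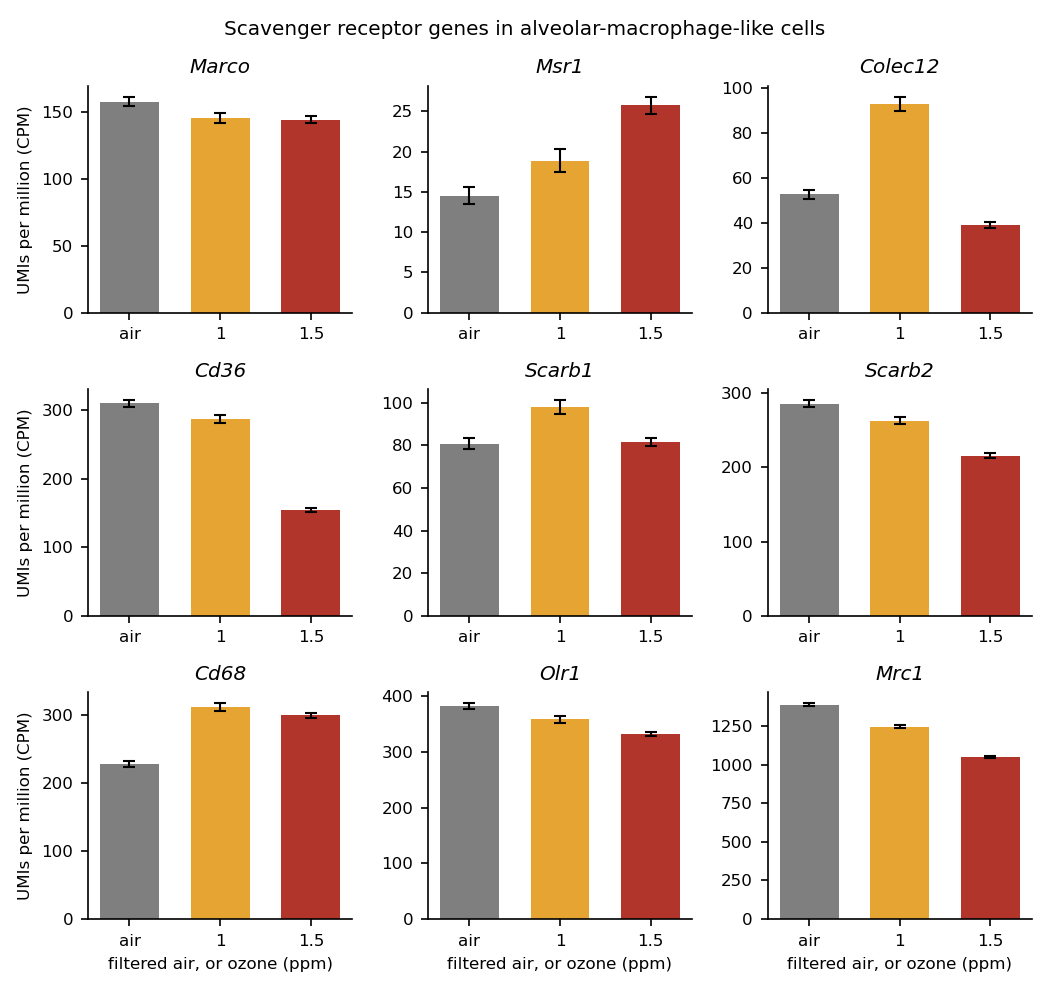
Level of each receptor gene in alveolar-macrophage-like cells of the 3 libraries, in UMIs per 1000000 UMIs (CPM); bars are the level, whiskers its exact 95% Poisson interval, which covers counting error only. Cd36 is at 155 CPM at 1.5 ppm, below the other 2 libraries, and Colec12 is at 92.9 CPM at 1 ppm, above the other 2.

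Among the class A receptors, Marco (ENSMUSG00000026390), a collagenous receptor for particles, bacteria and oxidised sterols, had 158, 146 and 145 CPM in the air, 1 ppm and 1.5 ppm libraries. Both ozone libraries were slightly below air and level with each other: the ratio was 0.922 (0.890 to 0.954) for 1 ppm over air, 0.914 (0.889 to 0.940) for 1.5 ppm over air and 0.992 (0.961 to 1.02) for 1.5 ppm over 1 ppm. Without cluster 2 the ratio for 1.5 ppm over air was 1.02, so its side of 1 depended on that cluster. Without cells holding 3 or more UMIs of G2 and M phase genes, counted over all UMIs of a cell, that ratio was 0.759. This cut left out 28.1% of cells in air and 38.7% at 1.5 ppm, not only the dividing cells described below. Those were counted after cells were thinned to equal depth. In thinned cells with 0, 1 to 2 and 3 or more such UMIs the Marco ratio of 1.5 ppm over air was 0.793, 0.797 and 0.913.

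Msr1 (ENSMUSG00000025044), the receptor for acetylated and oxidised low-density lipoprotein known as scavenger receptor A, had 14.5, 18.9 and 25.7 CPM, with 722, 708 and 2317 UMIs behind those levels. Its level was higher with each dose, by 1.30 times (1.17 to 1.45) at 1 ppm and 1.78 times (1.63 to 1.93) at 1.5 ppm over air. The summed level of 10 markers of C1q macrophages, a class that carried more Msr1, was 77.8 CPM at 1.5 ppm and 71.7 CPM at 1 ppm, against 65.2 CPM in air, within the same cells. Cd14, 1 of the 10, was at 24.1 CPM at 1.5 ppm and 23.2 CPM at 1 ppm against 16.7 CPM in air. It made up most of the rise in the sum. The part of C1q macrophage transcripts in the Msr1 difference was not tested. A gate on alveolar macrophage markers, with almost no UMIs of markers of other classes allowed, kept only 480, 299 and 1201 cells. In macrophages chosen by this marker gate the Msr1 ratio of 1.5 ppm over air was 1.37, below 1.5-fold.

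Colec12 (ENSMUSG00000036103), a membrane collectin that binds oxidised lipoprotein and glycans, had 52.7, 92.9 and 38.9 CPM. The 1 ppm library was above both others, at 1.76 times air (1.68 to 1.86), whereas the 1.5 ppm library was at 0.739 of air (0.702 to 0.778) and 0.419 of 1 ppm (0.400 to 0.439). The levels therefore had no single order with dose. In the smaller set chosen by the marker gate instead of by cluster, 299 cells at 1 ppm and 480 in air, the ratio of 1 ppm over air was 1.249, below 1.5-fold.

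In class B, Cd36 (ENSMUSG00000002944), which binds oxidised phospholipids and takes up long-chain fatty acids, had 310.3, 288 and 155 CPM. The 1.5 ppm library was at 0.499 of air (0.488 to 0.510) and 0.538 of 1 ppm (0.525 to 0.552). The 1 ppm library was at 0.927 of air (0.904 to 0.950), a much smaller gap. That ratio depended on the cells chosen: it was 0.797 without cluster 11, described below. Under the marker gate it was 1.11, on the other side of 1. In the barcodes left out for over 10% mitochondrial UMIs the ratio of 1.5 ppm over air was 0.755 (0.643 to 0.884) per non-mitochondrial UMIs, against 0.493 in kept cells on that scale. Of the 8655 genes compared between 1.5 ppm and air, 0.347% had a ratio at or below that of Cd36.

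Scarb1 (ENSMUSG00000037936), the high-density lipoprotein receptor that takes up cholesteryl esters, had 80.9, 98.1 and 81.8 CPM, a pattern highest at 1 ppm. Its ratio to air was 1.21 (1.16 to 1.27) at 1 ppm and 1.01 (0.973 to 1.05) at 1.5 ppm, where the interval holds 1. Scarb2 (ENSMUSG00000029426), a lysosomal membrane protein that delivers glucocerebrosidase to lysosomes, had 286, 263 and 215 CPM. Its ratio to air was 0.920 (0.897 to 0.944) at 1 ppm and 0.754 (0.738 to 0.771) at 1.5 ppm.

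Cd68 (ENSMUSG00000018774), a late endosomal glycoprotein that binds oxidised lipoprotein and is used as a pan-macrophage marker, had 228, 312 and 299.6 CPM. Both ozone libraries were above air, by 1.37 times (1.33 to 1.40) at 1 ppm and 1.31 times (1.29 to 1.34) at 1.5 ppm, and they differed little from each other, with a ratio of 0.961 (0.941 to 0.982) for 1.5 ppm over 1 ppm.

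Of the lectin-like receptors, Olr1 (ENSMUSG00000030162), also called LOX-1, the oxidised low-density lipoprotein receptor first known from endothelium, had 382, 359 and 333 CPM. Its ratio to air was 0.939 (0.919 to 0.960) at 1 ppm and 0.871 (0.855 to 0.887) at 1.5 ppm. Mrc1 (ENSMUSG00000026712), the mannose receptor, had 1387, 1247 and 1049 CPM, and its ratio to air was 0.899 (0.888 to 0.909) at 1 ppm and 0.756 (0.749 to 0.763) at 1.5 ppm. Over the whole class both genes were lowest at 1.5 ppm, Mrc1 by the wider margin.

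A gene was counted as higher or lower when its ratio was at least 1.5-fold, with at least 100 UMIs over the 3 libraries and 10 CPM in the higher one. For 1 ppm over air, 1 of 9 receptors was higher, Colec12, against 0.492% of 8534 genes, and 0 were lower, against 0.832% of genes. For 1.5 ppm over air, 1 of 9 was higher, Msr1, against 7.8% of 8655 genes, and 1 was lower, Cd36, against 3.05%. For 1.5 ppm over 1 ppm, 0 of 9 were higher, against 5.75% of 8630 genes, and 2 were lower, Colec12 and Cd36, against 1.68%. The median log2 ratio of the 9 receptors was -0.09 for 1 ppm over air, -0.20 for 1.5 ppm over air and -0.25 for 1.5 ppm over 1 ppm, beside medians over all genes of -0.06, -0.09 and -0.01. At a looser fold of 5/4, the counts were 3 higher (background 4.94%) and 0 lower (6.67%) for 1 ppm over air, 2 higher (17.3%) and 4 lower (17.9%) for 1.5 ppm over air, and 1 higher (14.3%) and 2 lower (9.93%) for 1.5 ppm over 1 ppm. At 2-fold, 0 of 9 were higher in any comparison, against backgrounds of 0.0937%, 1.76% and 2.16%, and the lower counts were 0 for 1 ppm over air (0.176%), 1 for 1.5 ppm over air, Cd36 (0.347%), and 1 for 1.5 ppm over 1 ppm, Colec12 (0.267%). The 3 comparisons share libraries, so they are not separate evidence.

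**Figure D2:**
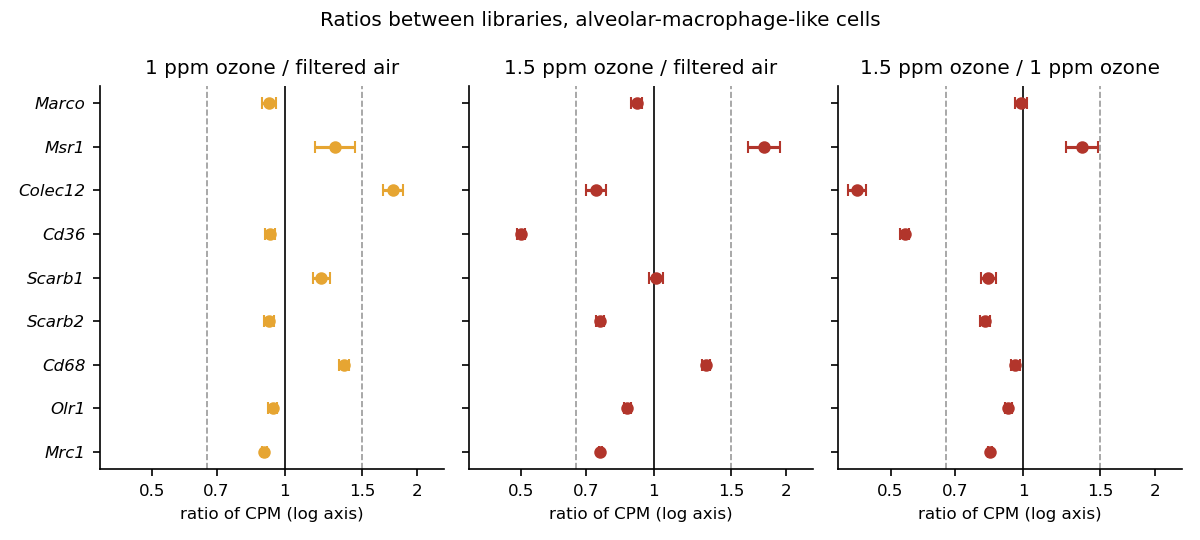
Ratio of CPM between libraries for each receptor gene in alveolar-macrophage-like cells, on a log axis; points are ratios, whiskers exact 95% conditional intervals for counting error, the solid line marks 1 and dashed lines mark 1.5-fold in either direction. Colec12 lies beyond 1.5-fold for 1 ppm over air, Msr1 and Cd36 for 1.5 ppm over air, and Colec12 and Cd36 for 1.5 ppm over 1 ppm.

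Promoters are shown for Cd36 and Cd68, of which Cd36 had the lowest ratio to air at 1.5 ppm and Cd68 was above air at both doses, so that the sequence at each start can be read beside the levels. RefSeq windows of GRCm38.p6, 250 bases before to 50 bases after the annotated start, were at hand for 6 of the 9 genes, and not for Msr1, Colec12 and Scarb1. The Cd36 window is chr5:17835847-17836146 and the Cd68 window chr11:69666121-69666420, both on the minus strand and written 5′ to 3′ along the gene. GENCODE transcripts of the same build start elsewhere for Cd36, so the window is 1 of several candidate starts. Capitals mark matches, on either strand, to 6 motifs searched in all windows: AGGTCA (a hexamer bound by PPAR gamma with RXR), TGACNNNGC (antioxidant response element core), TGANTCA (AP-1), GAGGAA (PU.1), TTGCNNAA (C/EBP) and CACGTG (E-box).
Cd36: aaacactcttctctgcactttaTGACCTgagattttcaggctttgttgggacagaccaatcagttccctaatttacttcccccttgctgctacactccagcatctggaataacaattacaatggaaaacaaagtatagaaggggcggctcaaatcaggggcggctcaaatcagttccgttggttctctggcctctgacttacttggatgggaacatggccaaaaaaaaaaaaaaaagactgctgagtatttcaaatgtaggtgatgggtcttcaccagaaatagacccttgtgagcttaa
Cd68: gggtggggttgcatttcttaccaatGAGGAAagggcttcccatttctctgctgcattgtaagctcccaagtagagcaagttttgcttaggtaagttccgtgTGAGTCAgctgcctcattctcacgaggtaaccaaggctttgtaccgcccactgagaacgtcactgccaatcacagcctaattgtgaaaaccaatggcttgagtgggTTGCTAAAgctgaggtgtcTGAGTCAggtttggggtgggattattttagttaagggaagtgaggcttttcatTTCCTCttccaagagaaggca
The Cd36 window held 1 match, TGACCT, the reverse complement of AGGTCA, starting 228 bases before the RefSeq start. The Cd68 window held 5 matches: TGAGTCA at 149 and 24 bases before the start, GAGGAA at 225 bases before it, TTGCTAAA at 43 bases before it, and TTCCTC at 29 bases after it. Of 32851 RefSeq promoter windows of the same length, 16.3% held AGGTCA, 12.4% TGACNNNGC, 7.81% TGANTCA, 28.3% GAGGAA, 10.8% TTGCNNAA and 7.15% CACGTG. A match describes letters in the window and not a bound site. None of the matched words overlapped another in either window.

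Candidate transcriptional regulators of the receptor genes were read from a list of 15, of which 13 had enough UMIs. At 1.5 ppm over air 0 were higher and 1 was lower, where 7.8% of all genes were higher and 3.05% lower, and at 1 ppm over air 0 were higher and 0 were lower, where the shares were 0.492% and 0.832%. The lower gene was Cebpa, a myeloid transcription factor, with 105 CPM at 1.5 ppm against 225 CPM in air, a ratio of 0.466 (0.453 to 0.479). Pparg, the nuclear receptor of fatty acids that is needed for alveolar macrophage identity and activates Cd36 in macrophages, had 557 CPM at 1.5 ppm and 554 CPM at 1 ppm, against 826 CPM in air, ratios that just missed the 1.5-fold rule, with log2 values of -0.57 and -0.58. Its part in the Cd36 level was not tested. Bhlhe41, a repressor in alveolar macrophages, had 166 CPM at 1.5 ppm against 118 CPM in air, and Nr1h3, the oxysterol receptor LXR alpha, had 33.0 CPM at 1.5 ppm against 42.9 CPM in air.

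Differences in the summed level can come from more cells with transcripts or from more transcripts per cell, so each cell was also thinned at random to 5000 UMIs, which left 3260, 2102 and 5355 cells and dropped 58, 36 and 327 shallower ones. Cd36 UMIs were then found in 64.8% (63.1 to 66.4), 56.3% (54.2 to 58.5) and 43.5% (42.2 to 44.8) of cells in air, 1 ppm and 1.5 ppm. Cells with a Cd36 UMI held 2.19, 2.36 and 1.72 of them on average, so at 1.5 ppm both the share and the number per cell were lowest. Random sampling of equal cells at the same means would give shares of 75.9%, 73.6% and 52.7%. Under such sampling a lower mean lowers the share and the number per cell together, so these values do not separate the sources. The shares without thinning were 84.4%, 80.1% and 66.8%. Among 94 T cell-like cells, a class that should hold few of these transcripts, 7.45% held a Cd36 UMI at a median depth of 3674.5 UMIs.

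Colec12 transcripts sat in few cells. After thinning 9.94%, 12.4% and 8.16% of cells held a UMI, and 16.6%, 21.1% and 15.7% did so without thinning, against 0 of 94 T cell-like cells. Those cells held 2.56, 3.08 and 2.20 UMIs on average, and the highest single cells held 36, 21 and 19. The variance over the mean was 7.65, 6.50 and 4.35, where random sampling of equal cells would give about 1, and cells with 3 or more UMIs, 2.45%, 4.38% and 1.94% of all, held 63.4%, 73.3% and 56.4% of the Colec12 UMIs.

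Marco was uneven too, found in 32.3% (30.7 to 34.0), 27.3% (25.4 to 29.2) and 26.6% (25.5 to 27.9) of thinned cells, with a variance over the mean of 3.13, 3.50 and 3.41. The share of cells was lower in both ozone libraries while the mean of the cells with a UMI was 2.27, 2.41 and 2.28. Without thinning the shares were 48.2%, 40.9% and 40.0%, and 1.06% of T cell-like cells held a Marco UMI.

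Cd68 was found in 59.8% (58.1 to 61.5), 71.3% (69.3 to 73.2) and 67.4% (66.1 to 68.7) of thinned cells, and cells with a UMI held 1.79, 2.05 and 2.03 of them. Its higher level in both ozone libraries thus came with a larger share and a larger number per cell. Random sampling of equal cells at the same means would give shares of 65.9%, 76.9% and 74.5%, which move the same way. Msr1, at the low end, was found in 6.13%, 8.18% and 8.87% of thinned cells and almost always as 1 UMI, with 1.16, 1.17 and 1.23 per cell that had any. Scarb2 was found in 75.4%, 69.1% and 64.8%, Scarb1 in 33.3%, 35.8% and 32.9%, Olr1 in 77.9%, 74.8% and 73.3%, and Mrc1 in 98.1%, 98.3% and 96.9%. Without thinning, Msr1 was found in 14.0%, 17.4% and 20.5% of cells, against 0 of 94 T cell-like cells. T cell-like cells held a UMI in 9.57% for Cd68, 7.45% for Scarb1, 19.1% for Scarb2, 5.32% for Olr1 and 13.8% for Mrc1, all below the alveolar-macrophage-like shares of 87.0%, 65.5%, 92.1%, 92.3% and 99.6% over the 3 libraries at a deeper median of 13936.5 UMIs. Scarb1 and Scarb2 were spread almost as random sampling gives, with variance over mean between 1.06 and 1.19.

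**Figure D3:**
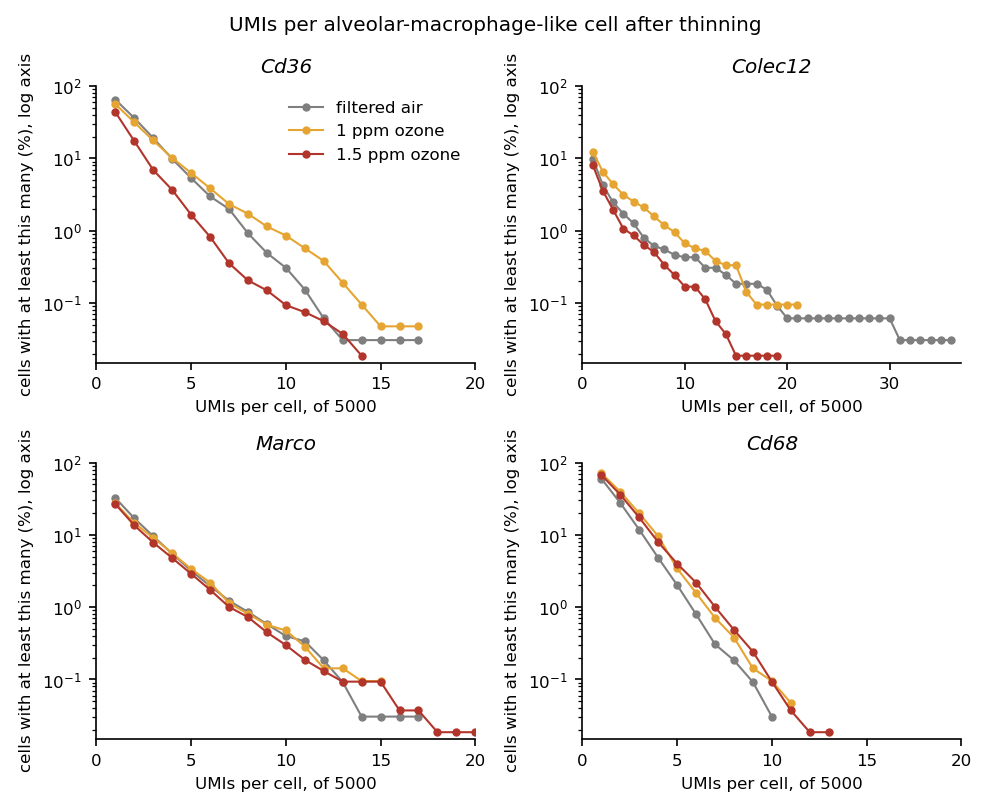
Share of alveolar-macrophage-like cells (percent, log axis) that hold at least a given number of UMIs of Cd36, Colec12, Marco or Cd68 after each cell was thinned to 5000 UMIs, 1 line per library. For Cd36 the 1.5 ppm line lies under both others, starting at 43.5% of cells, and Colec12 has a long tail that reaches 36 UMIs in the filtered air library.

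The receptors also differed between classes of cells, summed here over the 3 libraries because several classes held few cells. The C1q macrophage-like class, 103 cells led by C1qa, C1qc and C1qb, had 132 CPM of Msr1, which is 623% of the alveolar-macrophage-like level, and 121 CPM of Colec12, 223% of it. Cd68 was also higher there at 480.4 CPM, 170.3% of the alveolar level. Cd36 summed to 255 CPM, but its libraries lay on opposite sides of the alveolar-macrophage-like level, as given by library below. Marco was low in that class at 8.11 CPM, 5.45% of the alveolar level, as was Olr1 at 53.7 CPM, 15.3% of it, and Mrc1 at 603 CPM, 50.9% of it. Markers of alveolar macrophages summed to 19.5% of their alveolar level in these cells, so Marco lay below that share, Olr1 near it, and Msr1, Colec12 and Cd68 above it.

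Across libraries the C1q macrophage-like cells numbered 26, 14 and 63. Their Msr1 was 104, 58.4 and 172 CPM in air, 1 ppm and 1.5 ppm, from 28, 11 and 91 UMIs. Their Cd36 was 152 CPM (109 to 206) in air, 175 CPM (121 to 246) at 1 ppm and 337 CPM (289 to 390.4) at 1.5 ppm, with the highest value in the library where alveolar-macrophage-like cells had the lowest. The alveolar-macrophage-like levels were 310.3, 288 and 155 CPM, so the C1q macrophage-like cells were below them in air and at 1 ppm and above them at 1.5 ppm. Colec12 was at 121 CPM in the 1.5 ppm library against 203 CPM in air, and 0 UMIs were found in the 14 cells at 1 ppm, a count that allows up to 15.9 CPM.

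The other classes carried a subset. Migratory dendritic-like cells, 81 in all, had 139 CPM of Cd36 and 137 CPM of Scarb2, and 0 UMIs of Msr1 or Colec12, which allows up to 3.31 CPM. Cluster 19, 47 unnamed cells led by Pcdh7, Itgae and Klrd1, likewise had 249 CPM of Cd36 and 175 CPM of Scarb2 and 0 UMIs of Msr1 and Colec12. Cluster 13, 234 cells led by Ccl4 and Ccl3 of which 233 came from the 1.5 ppm library, had 409 CPM of Cd68 but 16.9 CPM of Cd36, 44.3 CPM of Mrc1 and 0 UMIs of Colec12, beside an alveolar macrophage marker sum at 14.2% of the alveolar level. Cd68 was the 1 receptor in that cluster above the alveolar-macrophage-like level.

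The remaining classes are given beside their alveolar macrophage marker sum. Neutrophil-like cells, 106 with 94 from the 1.5 ppm library, had 785 CPM of Mrc1 and 259 CPM of Olr1, and their alveolar macrophage marker sum was 57.9% of the alveolar level at a median of 2528.5 UMIs. Airway epithelial-like cells had 184 CPM of Cd36 with a marker sum at 33.5%. Cluster 20, 44 unnamed cells led by Lmo7, F3 and Krt18 with a marker sum at 4.00%, had 152 CPM of Cd36 and 31.0 CPM of Mrc1. T cell-like cells had 64.3 CPM of Mrc1 and 23.2 CPM of Cd36 at a marker sum of 11.4%, beside a median depth of 3674.5 UMIs. The share of these levels that came from free RNA was not tested.

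**Figure D4:**
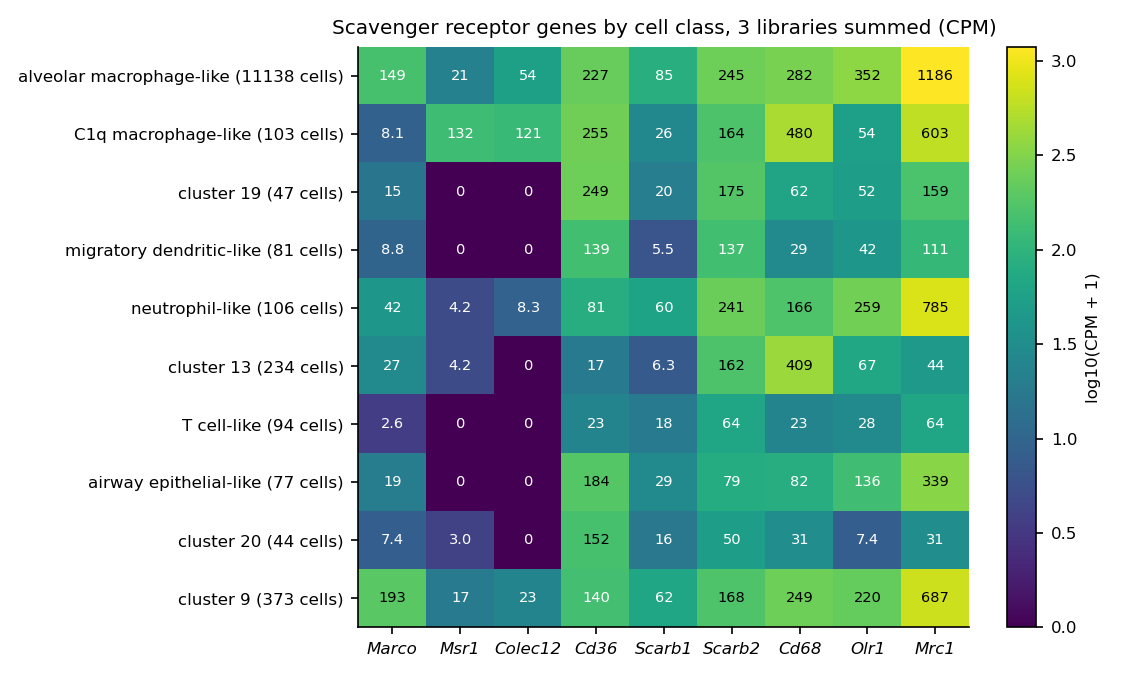
Level of each receptor gene (columns) in each cell class or unnamed cluster (rows), summed over the 3 libraries; numbers are CPM and colour is log10(CPM + 1). Msr1 and Colec12 are highest in the C1q macrophage-like row at 132 and 121 CPM, Marco is highest in the cluster 9 and alveolar-macrophage-like rows, and Cd36 is at 139 CPM in the migratory dendritic-like row.

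Within the alveolar-macrophage-like class, libraries were compared cluster by cluster where both had at least 50 cells. This left out cluster 2, the largest at 1.5 ppm with 1368 cells, which had 36 cells in air and 43 at 1 ppm. Cd36 was lower at 1.5 ppm than in air in 11 of 11 such clusters, with ratios between 0.487 and 0.872 and a median of 0.666. The gap inside these clusters was thus smaller at the median than the 0.499 of the whole class, which includes cluster 2. Scarb2 was lower in 11 of 11 clusters (0.691 to 0.945) and Mrc1 in 10 of 11 (0.726 to 1.02), while Cd68 was higher in 9 of 11 (0.903 to 1.83) and Msr1 in 8 of 11 (0.414 to 7.91). The ends of the Msr1 range rest on few UMIs. The low end had 6 UMIs in cluster 0 at 1.5 ppm, and the high end had 2.43 CPM in the 60 air cells of cluster 10. Marco was lower in 7 and higher in 4 of the 11, with ratios between 0.425 and 1.97. Its median of 0.654 was near that of Cd36 and below the 0.914 of the whole class.

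For 1 ppm over air, Colec12 was higher in 8 of 9 clusters (0.553 to 3.18), Cd68 in 9 of 9 (1.11 to 2.17) and Scarb1 in 8 of 9 (0.919 to 1.47). The low end for Colec12 was cluster 10, at low levels of 3.59 CPM at 1 ppm against 6.49 CPM in air. For 1.5 ppm over 1 ppm, Colec12 was lower in 8 of 9 clusters and Cd36 in 8 of 9. Scarb1 and Mrc1 were lower in 9 of 9. Cells of 1 library share their pool and droplets, so these clusters are not replicates of an exposure.

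Cluster 11, 317 cells led by Asns, Cxcr1 and Rgcc, held the highest Cd36 and Colec12 of the 12 clusters; neither gene took part in the clustering. Its Cd36 was 846, 971 and 632 CPM and its Colec12 was 194, 243 and 120 CPM in air, 1 ppm and 1.5 ppm, where it had 122, 138 and 57 cells. Cluster 1, led by Il1b and genes of sterol synthesis, had the lowest Cd36 over the 3 libraries summed, at 105 CPM, with 155, 116 and 97.1 CPM by library (cluster 6 was lower at 1 ppm, at 111 CPM), and the second highest Msr1 over the 3 libraries at 33.8 CPM. Cluster 12, led by Slc7a11, Cxcl3 and Hmox1, had the lowest Mrc1, at 483 CPM at 1.5 ppm against 475 CPM in air. Without cluster 11 the Cd36 ratio of 1.5 ppm over 1 ppm was 0.663.

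Receptor levels also followed cell states that the 9 genes did not define. Cells with 3 or more UMIs of 22 G2 and M phase genes after thinning were compared with cells holding 0, and they numbered 324 of 3260, 175 of 2102 and 1232 of 5355 in air, 1 ppm and 1.5 ppm. Marco was higher in the dividing cells of each library, at 215 against 136 CPM in air, 256 against 119 CPM at 1 ppm and 197 against 108 CPM at 1.5 ppm. Cd36 was lower in them, at 218 against 337 CPM, 175 against 324 CPM and 137 against 164 CPM. Olr1 and Mrc1 were lower as well, with ratios of dividing to non-dividing cells of 0.658, 0.793 and 0.746 for Olr1 and 0.690, 0.730 and 0.691 for Mrc1.

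The library with the most dividing cells was also the 1 with the lowest Cd36. For 1.5 ppm over air 19 of 22 G2 and M phase genes were higher and 0 were lower, against 7.8% and 3.05% of all genes. The list's median log2 ratio was 1.01 for 1.5 ppm over air, beside -0.09 over all genes. For 1 ppm over air 0 of 19 with enough UMIs were in either direction, against 0.492% of all genes higher and 0.832% lower. Among cells with 0 such UMIs the Cd36 ratio of 1.5 ppm over air was 0.486, and among cells with 3 or more it was 0.631, so Cd36 was lower at 1.5 ppm in both. The part of cell division in the Cd36 difference was not tested further. The Cd36 ratio was 0.531, 0.496 and 0.510 in cells under 2.5%, 2.5 to 4% and over 4% mitochondrial UMIs. The Mrc1 ratio of 1.5 ppm over air was 0.682, 0.807 and 0.997 in the same ranges. For Scarb2 it was 0.747, 0.786 and 0.929, and for Olr1 0.831, 0.865 and 1.06. In those 3 ranges the Colec12 ratio of 1 ppm over air was 1.57, 1.72 and 1.78. Colec12 at 1.5 ppm over air was not on 1 side throughout, with 35.0 against 35.2 CPM, 41.2 against 56.4 CPM and 64.8 against 51.9 CPM, and Cd68 at 1.5 ppm over air was 1.50, 1.17 and 1.08, nearer to 1 at a higher mitochondrial share.

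Oxidative stress was read from Hmox1, which degrades haem, and Slc7a11, the cystine transporter. Cells with 3 or more of their UMIs after thinning numbered 273, 91 and 321. Colec12 was higher in these cells in each library, at 143 against 42.9 CPM in air, 257 against 83.9 CPM at 1 ppm and 76.0 against 35.8 CPM at 1.5 ppm. Cd68 was higher by 1.70, 1.30 and 1.41 times and Msr1 by 1.70, 1.60 and 1.76 times. Mrc1 was lower, at 0.525, 0.625 and 0.688 of the level in the other cells. Across libraries, 5 of 8 oxidative stress genes with enough UMIs were lower and 0 were higher at 1 ppm than in air, where 0.832% of all genes were lower and 0.492% higher. At 1.5 ppm 4 were lower and 0 higher than in air, where the shares were 3.05% and 7.8%. At 1.5 ppm over 1 ppm 2 were higher, Slc7a11 and Txnrd1, and 0 were lower, where the shares were 5.75% and 1.68%. Hmox1 had 171 CPM at 1 ppm and 184 CPM at 1.5 ppm against 391 CPM in air, Slc7a11 had 23.0 and 40.0 CPM against 72.7 CPM, and Mt1, a metallothionein, had 537 and 470.0 CPM against 1286 CPM.

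Co-expression of the receptors from cell to cell was weak. Over the 36 pairs, Pearson correlations of log-transformed thinned UMIs lay between -0.14 and 0.16, and 0 pairs reached a positive value of 0.1 in all 3 libraries. Thinned to equal depth, the cells of a library still share their pool, and sparse counts hold such correlations near 0, so low values are not read as a lack of relation. Cd36 with Cd68 had the highest value in air and at 1 ppm, with 0.11 in air (3260 cells), 0.16 at 1 ppm (2102 cells) and 0.09 at 1.5 ppm (5355 cells), and without cluster 11 they were 0.08, 0.09 and 0.08. Colec12 with Cd36 had 0.05, 0.13 and 0.06. Olr1 with Mrc1 had 0.11, 0.06 and 0.11, and Marco with Cd68 had 0.07, 0.03 and 0.12. Cd68 with Mrc1 was negative in each library, at -0.13, -0.12 and -0.14, so the size of this correlation passed 0.1 in all 3 libraries.

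**Figure D5:**
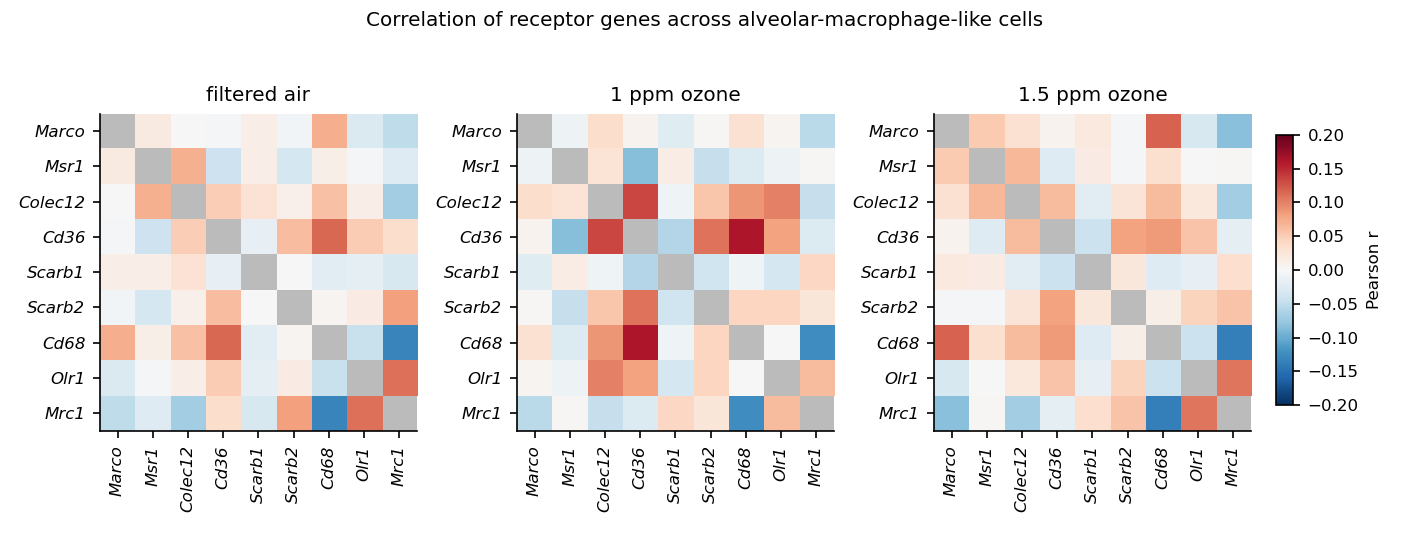
Pearson correlation between receptor genes across alveolar-macrophage-like cells, thinned to 5000 UMIs and log-transformed, for filtered air (3260 cells), 1 ppm (2102 cells) and 1.5 ppm ozone (5355 cells); red is positive, blue negative and the grey diagonal is not computed. The Cd36 with Cd68 square is the deepest red at 1 ppm, 0.16, and Cd68 with Mrc1 is blue in each panel.

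For receptors with enough UMIs, the genes of most similar pattern were ranked by the lowest of the 3 within-library correlations over 5842 genes. Cd36 was most like Ctsd, a lysosomal protease, with 0.26, 0.37 and 0.26, followed by Psap, the saposin precursor, with 0.22, 0.35 and 0.27, Gpnmb, a lysosome-linked glycoprotein, with 0.22, 0.37 and 0.21, and Ftl1, ferritin light chain, with 0.18, 0.26 and 0.19. Cd68 was most like Fth1 with 0.33, 0.34 and 0.33, then Ftl1, Lyz2 and Ctsd. Ctsd and Ftl1 are thus among the 4 closest genes of both. In the summed cells Ctsd had 2373 CPM at 1.5 ppm against 2676 CPM in air and Psap 1878 against 2363 CPM, so neither stood as low against air as Cd36.

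Mrc1 was most like Camk2d with 0.31, 0.26 and 0.28, then Adipor2, Malat1 and Mctp1, and most opposite to Ftl1 with -0.37, -0.36 and -0.39. Scarb2 was most like the cholesterol exporters Abcg1, with 0.11, 0.16 and 0.13, and Abca1, with 0.09, 0.13 and 0.10, then Abhd12 and Mertk. Marco was most like Fth1 with 0.12, 0.16 and 0.17, then Fabp5, Ftl1 and Tmsb10, and Olr1 most like Cd44 with 0.17, 0.13 and 0.17, then Dock10, Atp6v0d2 and Ptpn12. Among the closest genes of Scarb1 were Ptprc with 0.07, 0.05 and 0.05, Dgkg with 0.06, 0.05 and 0.05, and Hmgcs1, an enzyme of sterol synthesis, with 0.05, 0.07 and 0.06. Values this low in sparse counts are given as description only. Msr1 and Colec12 had too few UMIs per cell for such a ranking.

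Around the 9 genes, a list of 18 further scavenger receptors had 5 with enough UMIs in these cells. For 1 ppm over air 0 were higher and 0 were lower by the 1.5-fold rule, against 0.492% and 0.832% of all genes. Cd14, the co-receptor of Toll-like receptor 4 for lipopolysaccharide, had 24.1 CPM at 1.5 ppm against 16.7 CPM in air, and Clec7a, the beta-glucan receptor Dectin-1, had 860 CPM at 1.5 ppm against 1040 CPM in air. Neither passed the 1.5-fold rule. Of 12 partners in sensing and signalling, such as Tlr2, Tlr4 and Lyn, 8 had enough UMIs, and 0 were higher and 0 lower in each of the 3 comparisons, where between 0.492% and 7.8% of all genes were called in either direction, shares at which 0 of 8 is near the background. Among them Lyn, a kinase that binds Cd36, had 664 CPM at 1.5 ppm against 766 CPM in air, Cd81, a tetraspanin, had 122 against 158 CPM, and the kinases Fyn and Syk had 53.4 against 65.8 CPM and 341 against 372 CPM.

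Genes that handle lipid after uptake were counted from a list of 19, of which 17 had enough UMIs. For 1 ppm over air 1 was higher, Apoe, and 0 were lower, against 0.492% and 0.832% of all genes. For 1.5 ppm over air 2 were higher and 4 were lower, against 7.8% and 3.05% of all genes, with a median log2 ratio of -0.22 beside -0.09 over all genes. The 2 higher genes were the fatty acid binding proteins Fabp4 and Fabp5, and Fabp5 had 1516 CPM at 1.5 ppm against 665 CPM in air, a ratio of 2.28 (2.25 to 2.31). The 4 lower genes were Lpl, lipoprotein lipase, with 1276 against 2326 CPM, Abca1 with 128 against 225 CPM, Abcg1 with 1139 against 1834 CPM, and Pltp, the phospholipid transfer protein, with 38.6 against 85.8 CPM. Their ratios were 0.548, 0.569, 0.621 and 0.450, which is the range in which Cd36 lay at this dose. Between 1.5 ppm and 1 ppm, 2 of the 17 were higher and 5 were lower at 1.5 ppm, against 5.75% and 1.68% of all genes, Apoe being the further lower gene. At 1 ppm the same 4 genes were between 0.948 and 1.09 of air, and Cd36 was slightly below that range at 0.927, while Fabp4, at 287 CPM at 1.5 ppm against 173 CPM in air, was on the other side.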

How the data were processed

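The authors deposited raw UMI counts per gene and cell barcode, 1 matrix per pooled library, from Cell Ranger 8.0.0 on GRCm39 (mm39), per the submitters' processing notes and, for the tool, per the file headers. The handling of reads within introns is not stated there. The genes and lists were chosen with earlier results of these data known, and the rule for naming classes was set after the data were seen.

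Barcodes with at least 500 UMIs, 300 genes and at most 10% mitochondrial UMIs were kept. Clustering used log values at 10000 UMIs per cell and left out the 9 genes (2000 variable genes, 30 principal components, 15 neighbours, Leiden resolution 1; leidenalg 0.10.2, igraph 0.11.9, scikit-learn 1.9.0, with pandas 2.3.3, scipy 1.17.1 and numpy 2.4.6 under Python 3.11.15 and figures by matplotlib 3.10.9). No doublet caller was run, so doublets remain. Counts were summed per library and class. With 1 library per group no test was made. Levels have exact Poisson intervals, shares Clopper-Pearson intervals and ratios conditional exact intervals, all at 95% and for counting error only, and a count of 0 was bounded at 3 UMIs. The scripts were checked on simulated data. Genes named from a list were up to 4 by absolute log2 ratio of 1.5 ppm over air; Abcg1, Fabp4 and Apoe were added after their values were seen because they passed the fold rule. Like genes were the 4 with the highest value of the lowest within-library correlation, for receptors averaging at least 0.2 UMIs per thinned cell, among genes found in at least 10% of thinned cells. Alternatives included edgeR 4.0.16 TMM scaling, other filters and other definitions of the macrophages. 1 gene of the lists is not reported here.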

Additional observations from a re-analysis of the deposited data

Results flagged for a closer look

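Barcodes over 10% mitochondrial UMIs, left out of the comparisons, also carried receptor transcripts at levels that differed between libraries. They numbered 659 at 1.5 ppm and 990 at 1 ppm against 1816 in air, and their levels are per 1000000 UMIs without mitochondrial genes. Cd68 was at 198 CPM at 1.5 ppm and 200.4 CPM at 1 ppm against 119 CPM in air, ratios of 1.67 (1.43 to 1.94) and 1.69 (1.52 to 1.87), where kept cells gave 1.28 and 1.37. Msr1 was at 39.4 CPM at 1.5 ppm against 23.8 CPM in air, a ratio of 1.65 (1.16 to 2.32), where kept cells gave 1.71. Marco was at 223 CPM at 1.5 ppm against 153 CPM in air, a ratio of 1.46 (1.26 to 1.67), where kept cells gave 0.884, on the other side of 1. Other receptors were lower there at 1.5 ppm than in air: Colec12 at 0.653 (0.523 to 0.808; kept cells 0.711), Mrc1 at 0.756 (0.717 to 0.797; kept cells 0.733), Scarb2 at 0.799 (0.703 to 0.905; kept cells 0.735) and Cd36 at 0.755 (0.643 to 0.884), where kept cells gave 0.493. At 1 ppm over air Colec12 was at 1.23 (1.10 to 1.36), where kept cells gave 1.73. The difference between the discarded and kept barcodes was not tested.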

How the results depend on the processing

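Each count is given with the share of all genes called in the same setting. The count of receptors higher at 1 ppm than in air was 1 (0.492%), and was 3 at a fold of 5/4 (4.94%) and 0 at a fold of 2 (0.0937%). It was 0 in macrophages chosen by the marker gate (2.10%) and 2 where the mitochondrial share was 2.5 to 4% (0.667%). The count higher at 1.5 ppm than in air was 1 (7.8%), and was 2 at a fold of 5/4 (17.3%), 0 at a fold of 2 (1.76%) and 0 under the marker gate (8.41%). The count higher at 1.5 ppm than at 1 ppm was 0 (5.75%), and was 1, Msr1, at a fold of 5/4 (14.3%) and 1 without cluster 2 (7.09%). The count lower at 1.5 ppm was 4 against air at a fold of 5/4 (17.9%), where it had been 1 (3.05%), and 1 against 1 ppm at a fold of 2 (0.267%), where it had been 2 (1.68%). The count of pairs at a positive correlation of 0.1 or more in each library was 0, and was 1 (Cd36 with Cd68) without thinning and 1 without cluster 2. Apart from changes of fold, the cause was not tested. Leaving out clusters 2, 7 or 11 was chosen after seeing the data. Over 14 alternatives the Cd36 ratio of 1.5 ppm over air lay between 0.472 and 0.639, the Colec12 ratio of 1 ppm over air between 1.249 and 1.89, and the Msr1 ratio of 1.5 ppm over air between 1.37 and 2.03. The values 0.639, 1.249 and 1.37 came from the marker gate, which kept 480, 299 and 1201 cells. No paired analysis was possible because each group is 1 pooled library, and for the same reason no replicate could be left out.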

Other observations

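Genes of the most opposite pattern within each library add to the likeness rankings. Cd36 was most opposite to Tgfbi, an extracellular matrix protein, with correlations of -0.14, -0.20 and -0.18 in air, 1 ppm and 1.5 ppm, and Cd68 was opposite to Tcf7l2, a transcription factor of the Wnt pathway, with -0.22, -0.23 and -0.23. Marco was most opposite to Malat1, a nuclear RNA, with -0.14, -0.14 and -0.15. These opposite genes were chosen after their values were seen, and are descriptions across cells of 1 pool each.

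Cluster 9, 373 unnamed cells led by Scgb1a1, Cst3 and Cd74 at a median of 1010.0 UMIs, had 193 CPM of Marco over the 3 libraries, against 149 CPM in alveolar-macrophage-like cells. Its Cd36 was 140.3 CPM against 227 CPM there.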
